A study of Mus musculus with 12 samples.

Results

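The genes described here build the kinetochore and the mitotic spindle and drive cells through mitosis. The set comprised 57 genes chosen by symbol: 12 of the inner kinetochore, 11 of the outer kinetochore, 3 of the Ska complex, 5 of the spindle checkpoint, 4 of the chromosomal passenger complex, 7 mitotic kinases, cyclins and Cdc20, 6 kinesins, 4 genes of spindle assembly, midzone and cytokinesis, 3 of cohesion and chromosome structure, and the proliferation marker Mki67 with the transcription factor Foxm1. A gene was tested when more than 10 counts were found in at least 3 of the 12 libraries, which held for 56 of the 57 symbols and for 16484 of the 56350 genes in all. RNAseq was done on MPC2, a conditionally immortalized mouse mesenchymal progenitor line derived from 1 clone, in 4 conditions with 3 libraries each. Cells kept undifferentiated at 33 °C (MSCs) or differentiated for 3 weeks at 37 °C with beta-glycerophosphate and ascorbic acid (osteocytes) received DMSO vehicle or 50 µmol/L FG-4592 (Roxadustat, an inhibitor of the HIF prolyl hydroxylases) for 48 hours. No genotype differed between conditions, and differentiation, temperature and media changed together. Nothing in the labels states that replicates came from separate cultures, so that p-values measure the spread between these libraries, which may be technical.

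In mitosis, chromosomes attach to spindle microtubules through kinetochores. The inner kinetochore sits on centromeric chromatin marked by the histone variant CENP-A, and the outer kinetochore, with the Ndc80 complex at its core, binds the microtubules. Unattached kinetochores activate the spindle checkpoint, which holds back Cdc20 and the anaphase-promoting complex until all chromosomes are attached. Most of these genes are transcribed late in the cell cycle, so that in a tissue or culture their mRNAs are known as markers of dividing cells. MPC2 cells are described in the study as dividing at the lower temperature and ceasing to divide as they differentiate.

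Library totals ranged from 52829185 to 68108470 counts. Levels are given as CPM, which scales counts to the TMM-normalized library size, and a count of 0 allows up to 3 counts, or 0.0447 to 0.0545 CPM, a limit that covers counting error only. Of the 12 osteoblast and osteocyte markers, 9 passed the count filter. In vehicle, 5 of these 9 were higher and 2 lower in osteocytes than in MSCs (edgeR FDR under 0.05), against 26% and 24.9% of all genes. Dmp1 had 46 to 121 counts in vehicle-treated MSCs and 561 to 907 in vehicle-treated osteocytes, and Phex 52 to 70 and 2817 to 4181, with Bglap, Runx2 and Sp7 also higher, whereas Alpl and Ibsp were lower (log2 fold changes of -0.33 and -0.74). With FG-4592, 6 of the 9 fell in MSCs (20.4% of all genes did), among them Ibsp by -4.12 and Alpl by -1.99 on the log2 scale. In osteocytes 7 of the 9 fell (22% of all genes did), among them Dmp1 to 85 to 157 counts and Phex to 125 to 231, and Fgf23 rose from 0 to 5 counts to 79 to 125. The summed level of this list, 3000 to 3360 CPM in vehicle-treated MSCs, 2750 to 2960 with FG-4592, 2910 to 3400 in vehicle-treated osteocytes and 2900 to 3820 with FG-4592, is mostly Col1a1. Sost was at 0 in every library and Mepe never exceeded 2 counts. Adipocyte markers (5 of 6 passing the count filter) summed to 6.36 to 12.5 CPM in MSCs and to 1570 to 2200 CPM in osteocytes. Blood cell markers (2 of 8 passing) summed to 0.939 to 3.65 CPM and endothelial markers (3 of 6) to 1.5 to 3.8 CPM, with Cdh5, Emcn and Kdr at 0 or 1 count in each library. The part of other cells in the results below was not tested.

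The mitotic genes were highest in vehicle-treated MSCs and lowest in FG-4592-treated osteocytes. Their summed level was 2567 to 2674 CPM in vehicle-treated MSCs, 1769 to 2022 CPM in FG-4592-treated MSCs, 1375 to 1573 CPM in vehicle-treated osteocytes and 636.6 to 867.7 CPM in FG-4592-treated osteocytes, with no overlap between conditions. Relative to vehicle-treated MSCs, the median gene of the set stood at 69% with FG-4592, at 51.65% after differentiation and at 23.5% with both, and the last value ranged from 11.1% (Cenpm) to 86.6% (Zwint). The condition means fell at each step from MSCs in vehicle to MSCs in FG-4592, then osteocytes in vehicle and osteocytes in FG-4592, for 49 of the 56 genes, against 9.97% of all genes tested. Libraries did not overlap at any step of this order for 29 of the 56 (51.8%), against 1.95% of all genes. Vehicle-treated osteocytes stood above FG-4592-treated MSCs for Ska1, Ska2, Top2a, Zwint and Mis12, and FG-4592-treated MSCs above vehicle-treated MSCs for Bub1 and Dsn1. These are mean orders, and not each of these pairs differed beyond its spread. In bulk RNA, fewer dividing cells and less mRNA per cell cannot be told apart.

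**Figure D1:**
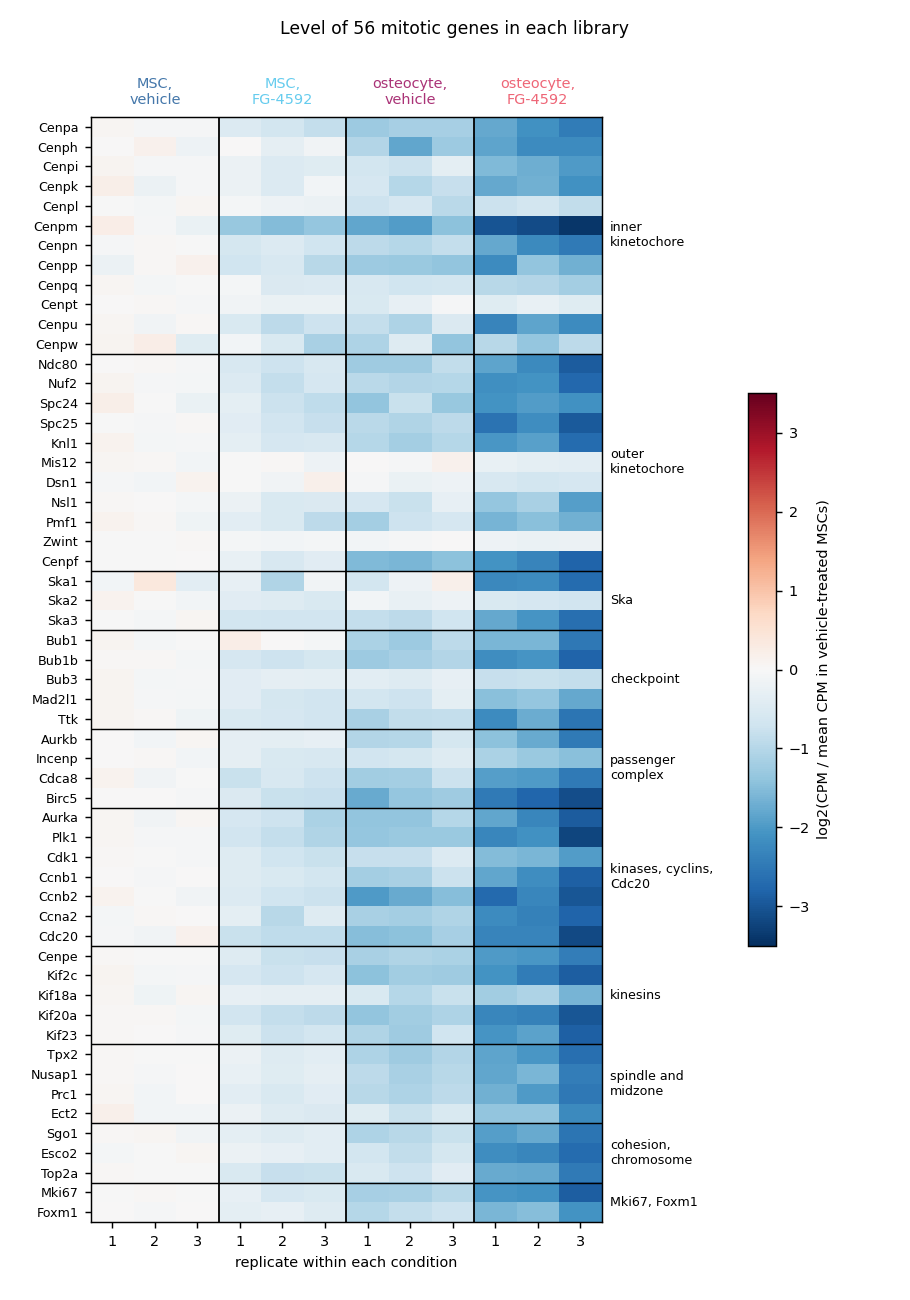
Level of each of the 56 mitotic genes (rows, by role) in each of the 12 libraries (columns, 3 per condition), as log2 of its CPM over its mean CPM in vehicle-treated MSCs, with blue below and red above that mean. The blue deepens over the 4 conditions from left to right, replicate 3 of FG-4592-treated osteocytes is the darkest column, and Zwint, Mis12, Cenpt and Dsn1 stay pale throughout.

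Replicate libraries were not equally low. Replicate 3 of FG-4592-treated osteocytes was the lowest of its condition for 51 of the 56 genes, and replicate 1 of FG-4592-treated MSCs the highest of its condition for 45. Counts over the set that change by more than 1.5 times without either library are given with and without it, and response differences lost without either are named with them.

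Levels per kilobase (RPKM, from the CPM and the annotated exonic length) allow the genes to be compared with each other. In vehicle-treated MSCs the highest were Ccnb2 at 33.6 ± 2.75, Cdc20 at 28.9 ± 2.65, Top2a at 28.3 ± 0.64 and Mki67 at 27.1 ± 0.495 RPKM (SD, n = 3). The lowest was Cenpw at 0.69 ± 0.159 RPKM, followed by Kif18a at 1.22 ± 0.0962 and Cenpk at 1.25 ± 0.174. Zwint, at 26 ± 0.575 RPKM in vehicle-treated MSCs and 22.5 ± 0.481 in FG-4592-treated osteocytes, had the highest level of the set in the latter condition, where Top2a had 7.21 ± 1.82 and Mki67 5.46 ± 1.56 RPKM.

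Kif11, the kinesin that pushes spindle poles apart, was the 1 gene of the set that was not tested. Its row on chromosome 19 held 0 to 6 counts in any library. A second row of the same name and length (7461 bases) lies on the patch scaffold KV575242.1 and held 0 or 1 count. Reads that match 2 places equally well are not uniquely mapped, and such reads were not counted, but whether this set the low counts was not tested. A like pair of rows was seen for Haus1, Itgb3bp, Plk4 and the osteocyte marker Pdpn. Across the table, 251 protein-coding genes on main chromosomes have a protein-coding row of the same name elsewhere, and 17.1% of them passed the count filter against 59.7% of the other protein-coding genes. No level is given here for Kif11 or for these 4 genes.

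Late cell-cycle promoters are known to carry a cell cycle genes homology region (CHR), bound by the MuvB core with B-MYB or in the repressive DREAM complex, and CCAAT boxes, bound by NF-Y. HIF binds the hypoxia response element, whose core is ACGTG or GCGTG, of which the first form alone was searched. Promoter windows of RefSeq (build GRCm38.p6, from 250 bases before to 50 after each start) were found for 46 of the 56 genes, as 51 windows. The letters TTTGAA (CHR) were found on either strand in 54.9% of these 51 windows and in 17.9% of all 32851 windows, and CCAAT in 76.5% and 37.4%. Both were present in 47.1% and 6.95%, whereas windows of DNA replication genes held both in 10% (of 30 windows). With or without the other motif, CCAAT was found in 56.7% of the DNA replication windows and CHR in 13.3%. ACGTG was found in 27.5% of the windows of the set, in 19.6% of all windows and in 30% of the DNA replication windows. The CHR and CCAAT letters can share at most 1 base where they meet. These counts are a description, since a match need not be a site that is used.

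The matches were placed unevenly. CHR letters began in the 25 bases before the start in 13.7% of the windows of the set and in the first 25 bases after it in 15.7%, against 1.38% and 1.31% of all windows. CCAAT was most frequent from 75 to 51 bases before the start, in 33.3% of the windows of the set and in 6.99% of all windows. Among the 46 genes, the median log2 fold change with FG-4592 was -0.60 in MSCs and -1.11 in osteocytes for the 25 with a CHR match, and -0.36 and -0.90 for the 21 without one. For the 34 with a CCAAT match the medians were -0.56 and -1.03, and for the 12 without one -0.58 and -1.04. For the 14 with an ACGTG match they were -0.62 and -0.95, and for the other 32 they were -0.54 and -1.05.

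**Figure D2:**
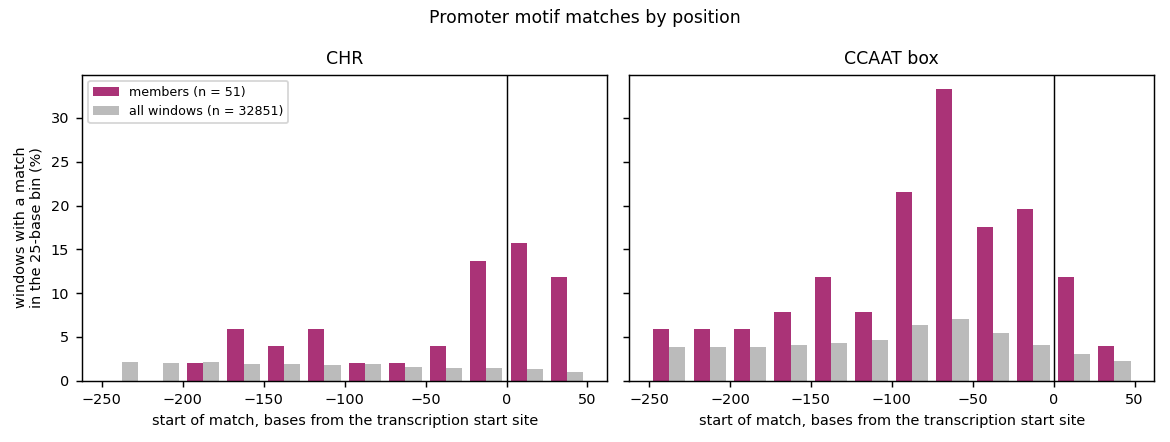
Share of promoter windows (y axis, percent) with a CHR or CCAAT match on either strand that begins in each 25-base bin, by distance from the transcription start site (x axis, bases), for the 51 windows of the mitotic genes and all 32851 windows. Matches of the set gather near the start for CHR (15.7% in the bin after it) and upstream of it for CCAAT (33.3% from 75 to 51 bases before it).

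The 3 promoters with the lowest and the 2 with the highest mean change with FG-4592, among genes with a single window, are printed to show both motifs, with CHR and CCAAT letters of either strand in capitals and all other bases in lower case. Cenpm (chr15:82244287-82244586, minus strand) has 2 CCAAT matches and no TTTGAA. Spc25 (chr2:69206164-69206463, minus strand) has a CHR match 24 bases after the start, and CCAAT 55 and 23 bases before it. Top2a (chr11:99024140-99024439, minus strand) has 6 CCAAT and 2 CHR matches, the nearer CHR 23 bases before the start. Zwint (chr10:72654596-72654895, plus strand) has 2 CCAAT matches and no CHR. Cenpl (chr1:161070517-161070816, plus strand) has a CHR match 162 bases before the start and 2 CCAAT matches.
Cenpm: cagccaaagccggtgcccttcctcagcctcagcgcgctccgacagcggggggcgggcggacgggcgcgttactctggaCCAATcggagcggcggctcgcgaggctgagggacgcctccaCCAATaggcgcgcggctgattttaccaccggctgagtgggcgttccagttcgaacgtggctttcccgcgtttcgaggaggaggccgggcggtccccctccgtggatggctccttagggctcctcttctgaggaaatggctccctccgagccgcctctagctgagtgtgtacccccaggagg
Spc25: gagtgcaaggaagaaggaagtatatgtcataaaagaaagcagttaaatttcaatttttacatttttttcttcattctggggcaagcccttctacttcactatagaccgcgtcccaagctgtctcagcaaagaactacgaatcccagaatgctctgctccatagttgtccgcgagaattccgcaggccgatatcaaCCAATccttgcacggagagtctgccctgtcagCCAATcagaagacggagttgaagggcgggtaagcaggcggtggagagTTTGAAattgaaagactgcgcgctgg
Top2a: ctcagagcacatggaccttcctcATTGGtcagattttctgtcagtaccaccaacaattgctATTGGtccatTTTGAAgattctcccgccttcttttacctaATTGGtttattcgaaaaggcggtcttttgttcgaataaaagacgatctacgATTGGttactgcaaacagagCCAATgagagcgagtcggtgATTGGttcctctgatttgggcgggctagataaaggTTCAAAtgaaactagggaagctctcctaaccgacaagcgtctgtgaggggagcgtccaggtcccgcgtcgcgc
Zwint: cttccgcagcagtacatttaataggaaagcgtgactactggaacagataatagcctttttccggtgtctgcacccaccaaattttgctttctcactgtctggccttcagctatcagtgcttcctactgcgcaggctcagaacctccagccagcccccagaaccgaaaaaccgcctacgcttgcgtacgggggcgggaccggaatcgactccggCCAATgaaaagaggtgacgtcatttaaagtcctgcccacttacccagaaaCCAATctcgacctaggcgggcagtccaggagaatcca
Cenpl: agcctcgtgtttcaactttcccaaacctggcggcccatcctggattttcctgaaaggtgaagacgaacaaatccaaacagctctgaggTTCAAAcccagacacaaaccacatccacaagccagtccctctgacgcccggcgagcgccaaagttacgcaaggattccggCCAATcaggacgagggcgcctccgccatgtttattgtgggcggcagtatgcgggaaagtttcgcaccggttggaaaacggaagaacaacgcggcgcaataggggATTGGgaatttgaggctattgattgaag

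FG-4592 was compared with vehicle within each cell type by edgeR's quasi-likelihood test, with p-values adjusted over all 16484 genes (FDR). The comparisons of treatment and of differentiation share libraries, so their values are given side by side. In MSCs, 39 of the 56 genes fell at an FDR under 0.05, against 20.4% of all genes tested, and their median log2 fold change was -0.54 (31% lower) against -0.045 over all genes. Only Cenpm also passed a 2-fold change (log2 below -1), against 5.17% of all genes. No gene of the set rose, by edgeR (17.6% of all genes rose), at an unadjusted p under 0.05 or by DESeq2. Vehicle and FG-4592 libraries did not overlap for 49 of the 56, against 27.3% of all genes, and the exceptions were Cenpw, Cenpk, Cenph, Ska1, Dsn1, Mis12 and Bub1.

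In osteocytes, 52 of the 56 genes fell with FG-4592 at an FDR under 0.05, against 22% of all genes, with a median log2 fold change of -1.03 (51.1% lower) against 0.002 over all genes. Past a 2-fold change there were 31, against 4.26% of all genes. Without replicate 3 of FG-4592-treated osteocytes these 31 became 14 and the median -0.87, while 52 still passed the FDR. No gene of the set rose by edgeR (21.9% of all genes rose), at an unadjusted p under 0.05 or by DESeq2. Libraries did not overlap for 52, against 25.7% of all genes, and the 4 that overlapped and did not pass were Cenpl, Cenpp, Cenpt and Cenpw, which all belong to the inner kinetochore.

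**Figure D3:**
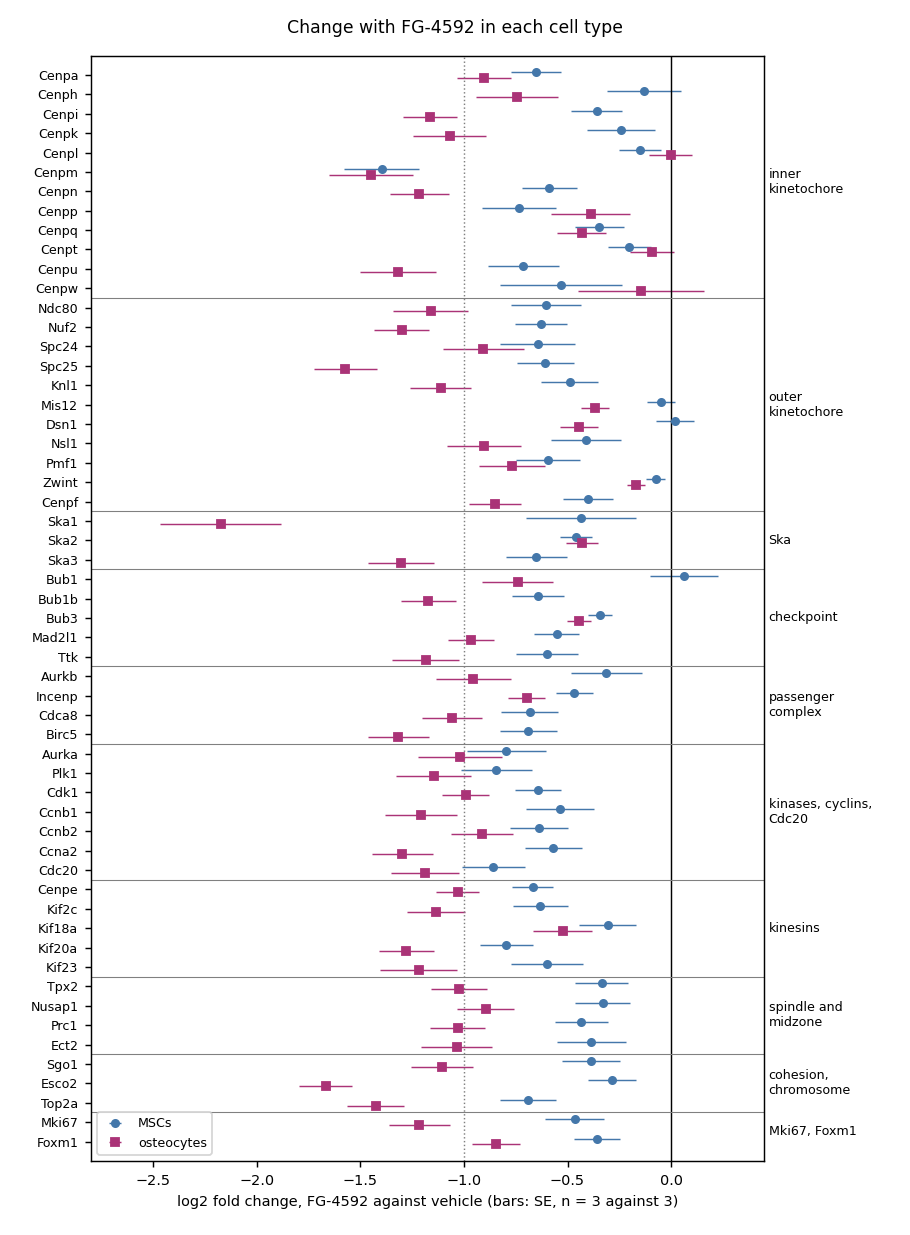
Log2 fold change with FG-4592 against vehicle (x axis) of each of the 56 genes (rows, by role) in MSCs (blue circles) and osteocytes (purple squares), with SE bars from the edgeR fit of 12 libraries; the dotted line marks a 2-fold fall. The squares lie to the left of the circles for 51 of the 56 genes, Cenpm is the only circle past the dotted line, and Ska1 is the square farthest to the left.

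Differentiation was compared within each treatment. In vehicle, 51 of the 56 genes were lower in osteocytes at an FDR under 0.05 (edgeR), against 24.9% of all genes, and 24 passed a 2-fold change, against 6.08%. Libraries did not overlap for 51, against 28.2% of all genes, and the 5 that overlapped were Ska1, Ska2, Dsn1, Mis12 and Zwint. In FG-4592, 53 were lower, against 25.3% of all genes, with 42 past a 2-fold change, against 5.64%, and 54 without overlap, against 29.6%. The medians were -0.95 in vehicle and -1.52 in FG-4592, against -0.006 and 0.032 over all genes. None was higher in osteocytes by edgeR, at an unadjusted p under 0.05 or by DESeq2 in either treatment, whereas 26% of all genes were higher in vehicle and 30.5% in FG-4592. Adipocyte markers rose with differentiation over the same libraries, as given above.

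Mki67, the nuclear antigen used to stain dividing cells (chromosome 7, 135689784 to 135716361 in mm10), had 272, 278 and 268 CPM in vehicle-treated MSCs and 223, 181 and 188 CPM with FG-4592. In osteocytes it had 121, 124 and 138 CPM in vehicle and 65, 63.1 and 36.8 CPM with FG-4592. Each condition lay below the one before with no overlap. The log2 fold change with FG-4592 was -0.47 (SE 0.14, edgeR FDR = 0.0173) in MSCs and -1.22 (SE 0.15, edgeR FDR = 4.92e-06) in osteocytes, and that of differentiation in vehicle was -1.09 (SE 0.15, edgeR FDR = 1.06e-05). The call in MSCs was lost without vehicle replicate 1 or 2 or FG-4592 replicate 2 or 3, with an FDR of up to 0.075 over the alternatives.

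Foxm1, the forkhead factor that activates late cell-cycle genes (chromosome 6, 128362967 to 128376146), followed the same steps at a lower level. It had 51.8, 50.1 and 51.6 CPM in vehicle-treated MSCs, 40.6, 42 and 37.2 CPM with FG-4592, 25.8, 28.7 and 31 CPM in vehicle-treated osteocytes and 17, 18.4 and 12.1 CPM in FG-4592-treated osteocytes. FG-4592 changed it by -0.36 on the log2 scale (SE 0.11, edgeR FDR = 0.0185) in MSCs and -0.85 (SE 0.12, edgeR FDR = 1.68e-05) in osteocytes. The MSC call was lost without vehicle replicate 1, 2 or 3 or FG-4592 replicate 3, at an FDR of up to 0.0772. With differentiation in vehicle it fell by 0.845 on the log2 scale (SE 0.11, edgeR FDR = 1.07e-05).

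**Figure D4:**
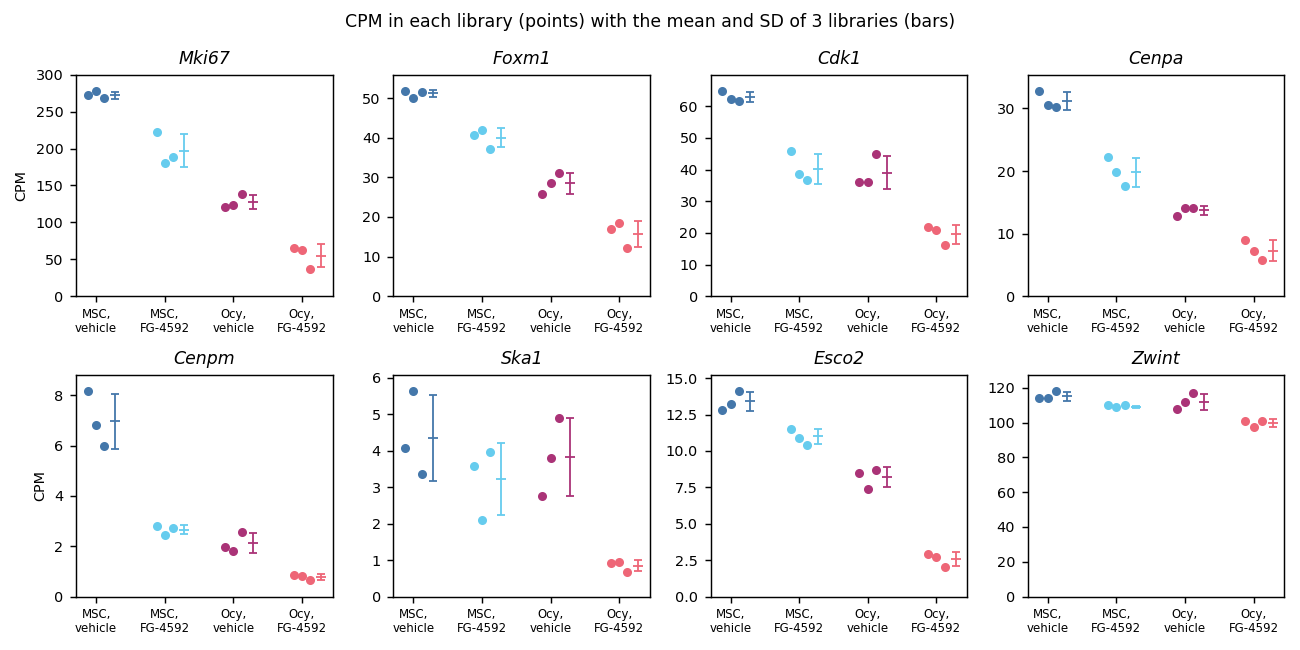
CPM (y axes, from 0) of 8 genes in each library (points) and the mean with SD of the 3 libraries per condition (bars beside them). Mki67, Foxm1, Cdk1 and Cenpa step down over the conditions, Cenpm is already at 38% of its vehicle level in FG-4592-treated MSCs, Ska1 and Esco2 fall most in FG-4592-treated osteocytes, and Zwint stays at 86.6% or more of its level in vehicle-treated MSCs.

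The counts by role that follow are to be read against the shares of all genes that fell with FG-4592, 20.4% in MSCs and 22% in osteocytes, and that were lower after differentiation in vehicle, 24.9%. Among the 12 inner kinetochore genes, 7 fell with FG-4592 in MSCs and 8 in osteocytes (edgeR FDR under 0.05), with median log2 fold changes of -0.45 and -0.82. All 12 were lower in vehicle-treated osteocytes than in vehicle-treated MSCs, with a median of -0.85. However, Cenpt lost this call in 6 of 18 alternatives (edgeR FDR up to 0.266) and Cenpw in 4 of 19 (up to 0.0877). For the fall with FG-4592 in MSCs, Cenpi lost its call in 6 of 19 alternatives (edgeR FDR up to 0.138) and Cenpq in 5 of 18 (up to 0.123). Cenpa, the centromeric histone (chromosome 5, 30666777 to 30674830), had 32.8, 30.5 and 30.2 CPM in vehicle-treated MSCs and 22.2, 19.8 and 17.6 CPM with FG-4592. The osteocyte libraries had 12.9, 14.1 and 14.1 CPM in vehicle and 9.02, 7.15 and 5.74 CPM with FG-4592. No 2 conditions overlapped. FG-4592 changed it by -0.65 on the log2 scale (SE 0.12, edgeR FDR = 0.000464) in MSCs and -0.90 (SE 0.13, edgeR FDR = 2.78e-05) in osteocytes.

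Cenpm, a subunit of the constitutive centromere network (chromosome 15, 82233779 to 82244748), had the largest change in MSCs. It had 8.16, 6.8 and 5.97 CPM in vehicle-treated MSCs against 2.79, 2.44 and 2.72 CPM with FG-4592, which is a change of -1.40 on the log2 scale (SE 0.18, edgeR FDR = 1.24e-05). In osteocytes it had 1.97, 1.82 and 2.57 CPM in vehicle and 0.862, 0.801 and 0.66 CPM with FG-4592 (log2 fold change -1.45, SE 0.20, edgeR FDR = 2.16e-05). The treated libraries lay far below the vehicle libraries in both cell types, and the responses differed by -0.05 (SE 0.26, edgeR FDR = 0.916). It kept its call in MSCs past both cutoffs when any 1 library was left out.

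Cenph (chromosome 13, 100759674 to 100775899), which sits beside Cenpk in the same complex, had the smallest change of the inner kinetochore in MSCs. Its 6.83, 7.58 and 6.03 CPM in vehicle overlapped 6.88, 5.53 and 6.26 CPM with FG-4592 (log2 fold change -0.13, SE 0.18, edgeR FDR = 0.616). In osteocytes, 3.33, 1.92 and 2.83 CPM in vehicle stood above 1.89, 1.47 and 1.47 CPM with FG-4592 (-0.74, SE 0.20, edgeR FDR = 0.00612). Cenpl, Cenpp, Cenpt and Cenpw had osteocyte log2 fold changes of -0.002, -0.39, -0.09 and -0.145 that did not pass the test (edgeR FDR 0.991, 0.113, 0.515 and 0.746). Cenpp nevertheless fell in MSCs (-0.73, edgeR FDR = 0.00382), but shares 315 of its 2564 exonic bases with Ippk. Cenpu, which fell in both cell types (-0.71 and -1.32), shares 1069 bases (26.7%) with Primpol.

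The outer kinetochore was described by complex. The 4 genes of the Ndc80 complex (Ndc80, Nuf2, Spc24 and Spc25), which contacts the microtubule, fell in both cell types, by medians of -0.62 in MSCs and -1.23 in osteocytes (4 of 4 at an edgeR FDR under 0.05 each). Of the 4 genes of the Mis12 complex (Mis12, Dsn1, Nsl1 and Pmf1), which joins it to the inner kinetochore, Pmf1 alone fell in MSCs (-0.59, near the Ndc80 genes), joined by Nsl1 without replicate 3 of FG-4592-treated osteocytes, and all 4 fell in osteocytes, with medians of -0.23 and -0.61. The difference between the 2 complexes was not tested. Over all 11 outer genes, 7 fell in MSCs (median -0.49) and 11 in osteocytes (median -0.90).

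Spc24 (chromosome 9, 21755442 to 21760303) had the largest change of the outer layer in MSCs, from 9.99, 8.67 and 7.45 CPM in vehicle to 6.86, 5.17 and 4.68 CPM with FG-4592 (log2 fold change -0.64, SE 0.18, edgeR FDR = 0.00992). Spc24 lost this call in 2 of 19 alternatives (edgeR FDR up to 0.0677). In osteocytes it went from 3.31, 5.1 and 3.46 to 2.05, 2.26 and 2.01 CPM (-0.91, SE 0.20, edgeR FDR = 0.0012). The libraries did not overlap in either cell type. Dsn1 (chromosome 2, 156995265 to 157007154) had the smallest change in MSCs, with 17.3, 16.5 and 19 CPM in vehicle and 17.3, 16.3 and 19.9 CPM with FG-4592 (0.02, SE 0.09, edgeR FDR = 0.901). In osteocytes its 17, 15.1 and 15.5 CPM in vehicle lay above 12, 11.2 and 11.6 CPM with FG-4592 (-0.45, SE 0.09, edgeR FDR = 0.000878), so that the FG-4592-treated osteocytes alone stood apart from the other conditions. Zwint, which tethers the checkpoint's RZZ complex to the kinetochore, had 114, 114 and 118 CPM in vehicle-treated MSCs and 101, 97.4 and 101 CPM in FG-4592-treated osteocytes. Its log2 fold changes were -0.075 in MSCs (edgeR FDR = 0.205) and -0.17 in osteocytes (edgeR FDR = 0.0053), and in MSCs those of Dsn1, Mis12 and Bub1 were nearer to 0.

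The Ska complex couples kinetochores to shrinking microtubules. Ska3 (chromosome 14, 57806561 to 57826185) had 12.1, 11.5 and 12.7 CPM in vehicle-treated MSCs and 7.75, 7.67 and 7.67 CPM with FG-4592, then 6.81, 6.36 and 7.45 CPM in vehicle-treated osteocytes and 3.48, 2.91 and 1.95 CPM with FG-4592. It fell in both cell types, by a log2 fold change of -0.65 (SE 0.15, edgeR FDR = 0.00207) in MSCs and -1.30 (SE 0.16, edgeR FDR = 4.41e-06) in osteocytes. Ska1 had 4.07, 5.63 and 3.35 CPM in vehicle-treated MSCs and 3.59, 2.1 and 3.97 CPM with FG-4592, which overlapped (-0.44, SE 0.26, edgeR FDR = 0.219). Vehicle-treated osteocytes, at 2.77, 3.81 and 4.9 CPM, overlapped both, and FG-4592-treated osteocytes stood alone at 0.908, 0.948 and 0.677 CPM (-2.17, SE 0.29, edgeR FDR = 1.39e-05), the lowest fold change of the set. Ska2, which shares 329 of its 3272 exonic bases with a lncRNA, fell by -0.46 in MSCs and -0.43 in osteocytes.

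In the spindle checkpoint, 4 of 5 genes fell in MSCs and 5 of 5 in osteocytes (edgeR FDR under 0.05), with medians of -0.55 and -0.97. Bub1b (BubR1, chromosome 2, 118598211 to 118641591), part of the complex that binds Cdc20, had 56.4, 56.5 and 52.7 CPM in vehicle-treated MSCs and 37, 33.2 and 35.9 CPM with FG-4592 (-0.64, SE 0.13, edgeR FDR = 0.000713). In osteocytes its 23, 24.8 and 27.2 CPM in vehicle stood above 12.3, 13.1 and 7.84 CPM with FG-4592 (-1.17, SE 0.13, edgeR FDR = 2.38e-06). All 4 conditions were apart. Bub1, the kinase that recruits it (chromosome 2, 127801122 to 127831865), had 36.7, 32.8 and 33.9 CPM in vehicle-treated MSCs and 40.5, 34.6 and 32.8 CPM with FG-4592, which overlapped (0.06, SE 0.16, edgeR FDR = 0.809). Osteocyte levels were 15.9, 14.2 and 18.3 CPM in vehicle and 11.5, 11.4 and 6.12 CPM with FG-4592 (-0.74, SE 0.17, edgeR FDR = 0.00231). Mad2l1, Ttk and Bub3 fell in both cell types, by -0.55 and -0.96, -0.60 and -1.18, and -0.34 and -0.45.

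The chromosomal passenger complex places Aurora B at the centromere and then at the midzone. Birc5 (survivin, chromosome 11, 117849251 to 117855743) had 52.3, 51.6 and 50 CPM in vehicle-treated MSCs, 36.4, 29.9 and 29.1 CPM with FG-4592, 15, 20 and 21.8 CPM in vehicle-treated osteocytes and 9.27, 7.49 and 5.99 CPM with FG-4592. It fell by a log2 fold change of -0.69 (SE 0.14, edgeR FDR = 0.00076) in MSCs and -1.32 (SE 0.15, edgeR FDR = 2.04e-06) in osteocytes, and by -1.44 (SE 0.14, edgeR FDR = 3.17e-07) with differentiation in vehicle. Aurkb, the kinase of the complex (chromosome 11, 69045647 to 69051664), had 32.6, 30.6 and 34.3 CPM in vehicle-treated MSCs and 26, 25.7 and 26.7 CPM with FG-4592. These did not overlap, but the difference did not pass the test (-0.31, SE 0.17, edgeR FDR = 0.169). It passed in 3 of 19 alternatives. In osteocytes, 15.9, 16.2 and 21.3 CPM stood above 12.1, 9.57 and 5.81 CPM (-0.96, SE 0.18, edgeR FDR = 0.000384). Incenp and Cdca8 fell in both cell types, by -0.47 and -0.70 and by -0.68 and -1.06.

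All 7 mitotic kinases, cyclins and Cdc20 fell in both cell types (edgeR FDR under 0.05), with medians of -0.64 in MSCs and -1.15 in osteocytes, and all 7 were lower in osteocytes than in MSCs in vehicle (median -1.24). Cdk1, the kinase that starts mitosis (chromosome 10, 69335146 to 69352938), had 64.8, 62.2 and 61.7 CPM in vehicle-treated MSCs and 45.7, 38.5 and 36.7 CPM with FG-4592 (-0.64, SE 0.11, edgeR FDR = 0.00019). Vehicle-treated osteocytes had 36, 36 and 45 CPM, within reach of the FG-4592-treated MSCs, and FG-4592-treated osteocytes 21.8, 20.9 and 16.2 CPM (-0.99, SE 0.11, edgeR FDR = 2.26e-06). The 2 middle conditions therefore overlapped.

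Cdc20, the activator of the anaphase-promoting complex (chromosome 4, 118432901 to 118437352), had the largest change of the group in MSCs. It had 52.6, 49.8 and 59.4 CPM in vehicle-treated MSCs and 31.3, 29.1 and 28.9 CPM with FG-4592 (-0.86, SE 0.15, edgeR FDR = 0.000304), and 19.2, 20.1 and 24.2 against 10.8, 11 and 6.01 CPM in osteocytes (-1.19, SE 0.16, edgeR FDR = 1.73e-05). Ccnb1, the partner of Cdk1 (chromosome 13, 100778650 to 100786570), had the smallest, from 56.5, 54.9 and 57.1 to 41.3, 38.9 and 36 CPM in MSCs (-0.54, SE 0.16, edgeR FDR = 0.016). Ccnb1 lost this call in 2 of 19 alternatives (edgeR FDR up to 0.0615). In osteocytes its 24.8, 25.6 and 33.1 CPM in vehicle lay above 15.9, 12.4 and 7.81 CPM with FG-4592 (-1.21, SE 0.17, edgeR FDR = 2.64e-05). Both genes stepped down over the 4 conditions with no overlap. Aurka and Plk1 fell by -0.80 and -0.84 in MSCs and by -1.02 and -1.15 in osteocytes. Ccnb2 had the largest fall of the set with differentiation in vehicle (-1.72, SE 0.145, edgeR FDR = 5.21e-08).

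Of the 5 kinesins tested, 4 fell in MSCs and 5 in osteocytes (edgeR FDR under 0.05), with medians of -0.63 and -1.13. Kif20a, which works in the central spindle, had 112, 112 and 104 CPM in vehicle-treated MSCs and 69.2, 61.6 and 57.8 CPM with FG-4592 (-0.80, SE 0.13, edgeR FDR = 0.000106). In osteocytes it had 41.8, 46.5 and 51.4 CPM in vehicle and 22.5, 21.2 and 13.8 CPM with FG-4592 (-1.28, SE 0.13, edgeR FDR = 8.58e-07). No conditions overlapped, although 1271 of its 4338 exonic bases (29.3%) are shared with Cdc23, whose reads cannot be told apart there. Kif18a, which dampens chromosome movement at the metaphase plate (chromosome 2, 109280738 to 109341747), changed least. Its 12.6, 10.9 and 12.6 CPM in vehicle-treated MSCs lay above 9.88, 9.61 and 9.63 CPM with FG-4592 without passing the test (-0.31, SE 0.14, edgeR FDR = 0.0924). This change passed in 2 of 18 alternatives. In osteocytes, 8.28, 5.97 and 7.04 CPM in vehicle lay above 5.19, 5.72 and 3.91 CPM with FG-4592 (-0.52, SE 0.14, edgeR FDR = 0.00711). Cenpe, Kif2c and Kif23 fell by -0.67, -0.63 and -0.60 in MSCs and by -1.03, -1.13 and -1.22 in osteocytes.

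Of the 4 genes of spindle assembly, midzone and cytokinesis, Prc1 alone passed the test in MSCs, and all 4 fell in osteocytes, with medians of -0.36 and -1.03. The MSC count became 4 of 4 without replicate 3 of FG-4592-treated osteocytes, a library outside this contrast that shares its fit. The median log2 fold change in MSCs over the whole set was -0.535 with and without that library. Prc1, which bundles midzone microtubules (chromosome 7, 80294450 to 80316259), had 111, 99.8 and 108 CPM in vehicle-treated MSCs and 81.6, 74 and 80.7 CPM with FG-4592 (-0.43, SE 0.13, edgeR FDR = 0.0125). Prc1 lost this call in 3 of 18 alternatives (edgeR FDR up to 0.0587). After differentiation it had 54.6, 50.2 and 56.8 CPM in vehicle and 33.1, 27 and 18.9 CPM with FG-4592 (-1.03, SE 0.13, edgeR FDR = 7.86e-06), and 911 of its 8225 exonic bases are shared with Rccd1. Nusap1, a microtubule-bundling protein at chromosomes (chromosome 2, 119618298 to 119651244), had 49.1, 45.7 and 47.5 CPM in vehicle-treated MSCs and 39.5, 35.7 and 38 CPM with FG-4592, which did not overlap but did not pass (-0.33, SE 0.13, edgeR FDR = 0.0603). In osteocytes its 25, 21.5 and 24 CPM stood above 13.5, 15.5 and 8.8 CPM (-0.90, SE 0.14, edgeR FDR = 5.93e-05). Tpx2 and Ect2 had -0.34 and -0.39 in MSCs (edgeR FDR 0.0523 and 0.0795), and fell by -1.02 and -1.04 in osteocytes.

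Cohesion and chromosome structure held 3 genes, of which Sgo1 and Top2a fell in MSCs and all 3 in osteocytes, with medians of -0.39 and -1.43. Top2a, the topoisomerase that untangles sister chromatids (chromosome 11, 98992943 to 99024189), had 262, 253 and 251 CPM in vehicle-treated MSCs and 178, 147 and 150 CPM with FG-4592 (-0.69, SE 0.14, edgeR FDR = 0.000669). In osteocytes it had 177, 154 and 193 CPM in vehicle, overlapping the FG-4592-treated MSCs, and 75.6, 73.2 and 46.1 CPM with FG-4592 (-1.43, SE 0.14, edgeR FDR = 3.68e-07). Esco2, the acetyltransferase that establishes cohesion during replication (chromosome 14, 65819038 to 65833994), had 12.8, 13.2 and 14.1 CPM in vehicle-treated MSCs and 11.5, 10.9 and 10.4 CPM with FG-4592. This was lower in each library but did not pass (-0.29, SE 0.12, edgeR FDR = 0.0669), although Esco2 passed in 4 of 19 alternatives. In osteocytes it went from 8.49, 7.41 and 8.7 CPM to 2.94, 2.75 and 2.05 CPM (-1.67, SE 0.13, edgeR FDR = 2.57e-08). Sgo1, which protects centromeric cohesion, lost its MSC call (-0.39, edgeR FDR = 0.0407) in 10 of 19 alternatives.

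**Figure D5:**
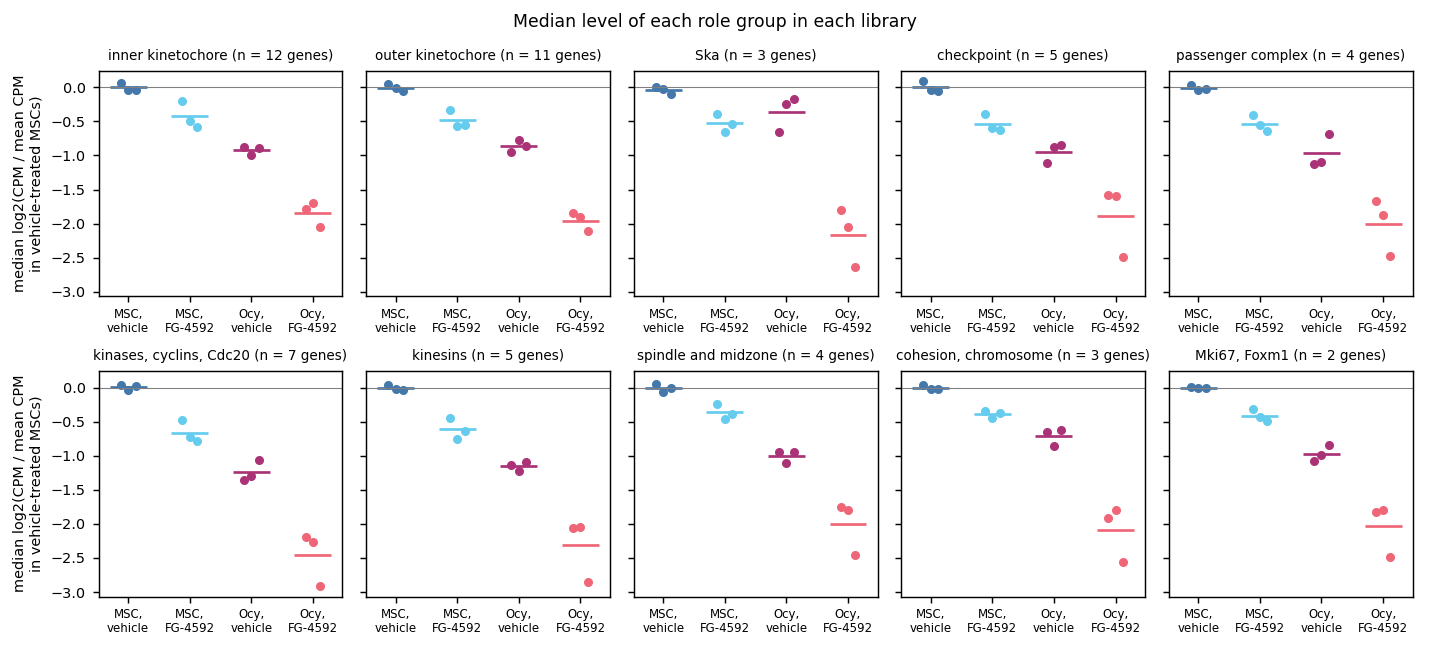
Median over the genes of each role group of log2 of CPM over mean CPM in vehicle-treated MSCs (y axis), in each library (points) of the 4 conditions (x axis), with the mean of the 3 libraries as a line. In each group except the Ska complex the points step down from left to right, and the Ska complex in vehicle-treated osteocytes, from -0.65 to -0.17, lies within or above the FG-4592-treated MSCs.

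The response to FG-4592 was then compared between the cell types by the interaction contrast of the same fit. The log2 fold change was lower in osteocytes than in MSCs for 51 of the 56 genes, against 45.7% of all genes, and the median difference was -0.50 against 0.048 over all genes. For 22 genes the difference passed an FDR of 0.05 in edgeR, against 11% of all genes, and for 2 of them, Ska1 and Esco2, it was also below -1, against 1.07% of all genes. No gene of the set had the opposite difference, by edgeR (13.3% of all genes had), at an unadjusted p under 0.05 or by DESeq2. The 22 became 13 without replicate 1 of FG-4592-treated MSCs and 17 without replicate 3 of FG-4592-treated osteocytes, the highest and the lowest libraries of their conditions. Lost without the former were Foxm1, Birc5, Ska3, Nusap1, Knl1, Bub1, Prc1, Bub1b and Mis12 (edgeR FDR 0.0527 to 0.0923), and without the latter Birc5, Cenpk, Ska3, Cenpn and Mis12 (edgeR FDR 0.0533 to 0.084). The difference is one of ratios, and vehicle-treated osteocytes started from a lower level.

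Ska1 had the largest difference, -1.74 (SE 0.39, edgeR FDR = 0.00389), and Esco2 the next, -1.38 (SE 0.17, edgeR FDR = 2.77e-05). Spc25, of the Ndc80 complex (chromosome 2, 69193895 to 69206194), had 21.2, 20.8 and 22.1 CPM in vehicle-treated MSCs and 16.4, 13.5 and 12.2 CPM with FG-4592, and 11.1, 10.4 and 11.4 against 3.54, 4.71 and 2.81 CPM in osteocytes. Its fall of -0.61 in MSCs and of -1.57 in osteocytes differed by -0.97 (SE 0.20, edgeR FDR = 0.0023). Treated osteocytes stood clear of all the other libraries for each of these 3 genes.

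Cenpk and Cenpi, both of the inner kinetochore, followed. Cenpk (chromosome 13, 104228611 to 104252392) had 7.5, 5.7 and 6.41 CPM in vehicle-treated MSCs, overlapping 5.67, 4.72 and 6.17 CPM with FG-4592, and 4.38, 3.25 and 3.77 against 1.89, 2.03 and 1.52 CPM in osteocytes (difference -0.83, SE 0.24, edgeR FDR = 0.0193). Without replicate 3 of FG-4592-treated osteocytes it was -0.715 (edgeR FDR = 0.0539). Cenpi (chromosome X, 134308084 to 134362639) had 18.6, 17 and 16.9 CPM in vehicle-treated MSCs and 15.3, 12.6 and 13 CPM with FG-4592. The corresponding osteocyte levels were 11.1, 10.4 and 13.8 CPM in vehicle and 6.02, 5.31 and 4.41 CPM with FG-4592 (difference -0.80, SE 0.18, edgeR FDR = 0.00375). By role, and against 11% of all genes, the difference passed for 3 of 3 genes of cohesion and chromosome structure, 3 of 4 of spindle assembly, midzone and cytokinesis, 5 of 11 outer kinetochore, 3 of 12 inner kinetochore, 2 of 3 Ska complex, 2 of 5 checkpoint, 1 of 4 passenger complex, both of Mki67 and Foxm1, 1 of 7 kinases, cyclins and Cdc20, and 0 of 5 kinesins. Without replicate 1 of FG-4592-treated MSCs the count became 0 for the checkpoint and the passenger complex, 1 for spindle assembly, midzone and cytokinesis, 1 for the Ska complex, 1 for Mki67 with Foxm1 and 3 for the outer kinetochore. Without replicate 3 of FG-4592-treated osteocytes it became 1 for the inner kinetochore and the Ska complex and 0 for the passenger complex. Differences between roles were not tested.

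Other genes of mitosis were measured from further lists, of which 107 of 110 genes were tested. With FG-4592, 45 fell and 14 rose in MSCs and 64 fell and 10 rose in osteocytes (edgeR FDR under 0.05), with medians of -0.20 and -0.30. Of all genes tested, 20.4% fell and 17.6% rose in MSCs and 22% fell and 21.9% rose in osteocytes, and the counts of each list below are to be read against these shares. Past a 2-fold fall there were 0 of the 107 in MSCs and 23 in osteocytes, against 5.17% and 4.26% of all genes, and those named here were chosen after their values were seen. Other mitotic kinesins and spindle genes had the lowest medians of these lists, with 15 of 21 falling in each cell type and medians of -0.48 and -0.91, as for Kif15 (-0.64 and -1.29) and the spindle protein Hmmr (-0.67 and -1.32). Mitotic entry regulators had 7 of 11 and 9 of 11 falling, with the phosphatase Cdc25c (623 of 4919 exonic bases shared) at -0.80 and -1.52 and the kinase Pbk at -0.60 and -2.02. The anaphase-promoting complex and its partners had 6 of 18 and 8 of 18 falling, condensins and cohesins 6 of 16 and 10 of 16, and cytokinesis and centriole genes 3 of 6 and 5 of 6. DNA replication genes, which act before mitosis, had 13 of 32 falling in MSCs and 27 of 32 in osteocytes, with medians of -0.25 and -0.51.

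Single genes of the centromere and spindle rose. Hjurp, the chaperone that loads CENP-A, had 182, 178 and 180 CPM in vehicle-treated MSCs and 239, 230 and 231 CPM with FG-4592 (0.37, SE 0.04, edgeR FDR = 1.97e-06). In osteocytes it had 121, 124 and 122 CPM in vehicle and 214, 205 and 214 CPM with FG-4592 (0.78, SE 0.04, edgeR FDR = 2.29e-10). Cenpa thus fell in both cell types while its chaperone rose. Cenpx, Ckap5 and Cenpb also rose in both, by 0.56, 0.44 and 0.40 in MSCs and by 0.88, 0.60 and 0.52 in osteocytes, under each scaling used. Of the 17 other kinetochore and centromere genes, 6 fell and 5 rose in MSCs, and 9 fell and 4 rose in osteocytes, so that the share that rose in osteocytes was near that of all genes (21.9%).

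The factors that bind late cell-cycle promoters were counted in the same way. Of 18 B-Myb, MuvB, E2F and pocket protein genes, 2 fell and 3 rose in MSCs with FG-4592, and 8 fell and 2 rose in osteocytes (edgeR FDR under 0.05), against 20.4% and 17.6% of all genes in MSCs and 22% and 21.9% in osteocytes. Mybl2 (B-MYB) had 8.92, 8.68 and 8.36 CPM in vehicle-treated MSCs and 10.3, 9.71 and 8.92 CPM with FG-4592 (0.15, SE 0.15, edgeR FDR = 0.47), but 3.87, 4.51 and 5.11 against 3.8, 3.29 and 2.26 CPM in osteocytes (-0.53, SE 0.16, edgeR FDR = 0.0157). The repressor E2f7 likewise had 0.17 in MSCs (edgeR FDR = 0.275) and fell by 0.805 on the log2 scale in osteocytes. Rbl2, the pocket protein p130 of the DREAM complex, had 0.06 in MSCs (edgeR FDR = 0.387) and rose by 0.38 in osteocytes (edgeR FDR = 8.21e-06), although 1585 of its 7558 exonic bases are shared with other genes. In MSCs the 5 that passed were E2f8 (-0.54) and the MuvB gene Lin9 (-0.28), which fell, and Rb1 (0.60), E2f4 (0.35) and Tfdp2 (0.19), which rose. Of their exonic bases, E2f8 shares 610 of 5443 and Rb1 896 of 6015 with other genes.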

How the data were processed

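RNAseq was measured in 12 libraries of MPC2 cells, 3 per condition, with groups read from the labels' cell type and treatment. The authors aligned read pairs (100 bases each) by STAR 2.7.2a against mm10, assigned those with a unique position to genes of Gencode M22 by featureCounts (Subread 1.6.2, mapping quality of at least 10, a pair counted for every gene it overlaps, no strand option) and deposited raw counts per gene without normalization. Totals ranged from 52829185 to 68108470 counts per library, and overlapping or antisense genes share reads.

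Genes that exceeded 10 counts in 3 or more libraries (16484 of 56350) were tested in edgeR 4.0.16 (R 4.3.3) with TMM factors, the quasi-likelihood test over all 12 libraries (8 residual degrees of freedom) and Benjamini-Hochberg adjustment over all genes tested. Cutoffs were an FDR under 0.05 and, where stated, an absolute log2 fold change above 1. The SE was taken from the fold change and the F statistic. The members and lists were chosen with earlier results of these data known. Genes given in full were, for each role, those with the largest and smallest fitted change with FG-4592 in MSCs, the 5 with the largest response difference, and Mki67, Foxm1, Cdk1 and Cenpa. Of the other lists, the 2 largest falls and rises past both cutoffs in MSCs were to be named, and there were none. Alternatives were DESeq2 1.42.0, RLE factors, library size alone, no count filter, a block for the replicate number, a fit of just the 6 libraries concerned, removal of genes that share exonic bases (GenomicRanges 1.54.1), and each library left out. Promoter windows came from RefSeq (GRCm38.p6), and 41 of 51 windows had their 20 bases from the start in a Gencode M21 transcript of the gene on the same strand. Figures were drawn in Python 3.11.15. ATACseq was not analysed here.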

Additional observations from a re-analysis of the deposited data

Results flagged for a closer look

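Each of the 22 genes below was picked because its change with FG-4592 differed between osteocytes and MSCs in the interaction contrast of edgeR (FDR under 0.05 over all genes tested). Of all genes, 11% had a lower and 13.3% a higher response in osteocytes at this FDR. All 22 differences, as log2 in osteocytes minus log2 in MSCs, were negative. In the inner kinetochore they were -0.80 for Cenpi, -0.83 for Cenpk and -0.63 for Cenpn. In the outer kinetochore Spc25 had -0.97, Nuf2 -0.67, Knl1 -0.62, Dsn1 -0.46 and Mis12 -0.32, and in the Ska complex Ska1 had -1.74 and Ska3 -0.65. The checkpoint genes Bub1 and Bub1b had -0.80 and -0.53, Birc5 of the passenger complex -0.63 and the cyclin Ccna2 -0.73. Among spindle and midzone genes Tpx2 had -0.69, Prc1 -0.60 and Nusap1 -0.57. Esco2, Top2a and Sgo1 had -1.38, -0.74 and -0.72, and Mki67 and Foxm1 -0.75 and -0.49. Ccna2 shares 510 of its 4083 exonic bases with Exosc9, and Mis12 231 of its 3003 with Derl2. Prc1, as given above, and to a smaller extent Cenpk, Nusap1, Ska3, Foxm1 and Top2a also share exonic bases with other genes. Replicate 1 was the highest of the FG-4592-treated MSCs for 45 of 56 genes and replicate 3 the lowest of the FG-4592-treated osteocytes for 51, and the differences lost without either are named in the report. Over up to 18 alternatives, Ska3 lost its call in 8, Bub1b in 6, Nusap1 in 5, Birc5 in 4, Foxm1, Cenpn and Mis12 in 3 each, and Cenpk, Knl1, Bub1 and Prc1 in 1 each, with Ska3, Bub1b and Nusap1 also lost under the replicate block. The other 11 kept theirs in each alternative run.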

How the results depend on the processing

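No called fold change of a gene of the set changed sign under any alternative run. DESeq2, RLE factors, library size alone and the replicate block kept every count over the whole set within 1.5 times, as did the fit of the 6 libraries compared, which gives no response difference. Without a count filter, 34 genes instead of 22 passed an FDR of 0.05 for the response difference. Removal of genes with shared exonic bases left 38 of the 56 by construction, and 24 instead of 39 fell in MSCs with FG-4592. Leaving out each library in turn, the genes that fell in MSCs ranged from 31 to 45 and the response differences from 13 (without MSC FG-4592 replicate 1) to 30, and the genes past a 2-fold fall in osteocytes with FG-4592 from 14 (without its replicate 3) to 36. Library size alone moved the median of all genes to -0.13 in MSCs and -0.096 in osteocytes with FG-4592, and the medians of the set to -0.62 and -1.13. Same-numbered replicates did not deviate together over all genes (correlations of -0.053 to 0.054). Over the genes of the set the correlations ranged from -0.412 to 0.363. Such correlations cannot show whether same-numbered samples were handled together. With the replicate block, 39 genes fell in MSCs, 52 in osteocytes and 20 had a lower response (1 instead of 2 in each of the Ska complex and the checkpoint), and the other counts over the set changed by at most 1.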

Other observations

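Cenpx, Hjurp, Ckap5 and Cenpb, noticed for their values after these were seen, had log2 fold changes above 0 with FG-4592 under each alternative that gave them a value, from 0.288 to 0.618 in MSCs and from 0.417 to 0.921 in osteocytes. In Hjurp and Cenpx the response was larger in osteocytes than in MSCs, by 0.41 (SE 0.06, edgeR FDR = 8.51e-05) and 0.32 (SE 0.11, edgeR FDR = 0.0442), the opposite sense to the 22 mitotic genes. Bora, an activator of Aurora A and Plk1, had the lowest fold change of all other mitotic lists in MSCs, -0.98 (SE 0.10, edgeR FDR = 9.09e-07), and one of about the same size in osteocytes, -0.91 (SE 0.10, edgeR FDR = 2.29e-06), with a difference of 0.075 (SE 0.14, edgeR FDR = 0.761).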
